A study of Mus musculus with 2 samples.

Results

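The cells described here were arterial endothelial cells of uninjured mouse tibialis anterior, a muscle of the lower leg. They line the arteries and arterioles that bring blood into the muscle. A barcode of the uninjured library was taken as arterial when it held at least 200 genes and at most 20% mitochondrial UMIs and met conditions on 10 genes. It had at least 2 UMIs of the endothelial genes Pecam1, Cdh5 and Cldn5 summed, and at least 3 UMIs of Gja5, Sema3g and Gkn3 summed. It had no UMI of the venous genes Ackr1 and Selp, of the fibro-adipogenic marker Pdgfra or of the smooth muscle marker Myh11. This left 213 cells among the 5581 barcodes of the uninjured library and the 10070 barcodes of both libraries. They made up 6.66% (5.82 to 7.58%) of the 3197 endothelial cells that passed the same gate without Pdgfra and Myh11. All intervals given here are exact 95% intervals and cover counting error only.

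The study made 2 droplet libraries of 3′ transcript ends with 10x version 2 chemistry from protease-digested whole muscle. The injured library came from muscle taken 24 hours (1 day) after an intramuscular injection of 1.2% BaCl, a salt that kills muscle fibres, and the other from an uninjured control muscle. All mice were C57B/6, 12 weeks old and fed standard chow, and neither their number nor their sex is given. The submitters entered the injection as the treatment of either sample, which leaves unstated what, if anything, the control muscle received. Each condition was 1 library, so no difference between conditions had a replicate check and no p-value is given.

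Arterial endothelium carries blood at high pressure and pulsatile flow. Its identity is set by Notch signalling, in which Dll4 and Jag1 on the neighbouring cell activate Notch1 and Notch4 and so the repressor Hey1, and by SoxF and ETS factors that act upstream of it. Arterial cells are joined by connexin gap junctions, release substances that set the tone of the smooth muscle around them, and take part with that muscle in building the elastic layer of the vessel wall. Capillary endothelium of skeletal muscle is instead specialised for exchange of water, gases and fatty acids, and venous endothelium for leukocyte traffic.

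The injured library held 4489 barcodes with a median of 7282 UMIs and none below 3333, and the uninjured library 5581 barcodes with a median of 3237 UMIs and none below 1843. Both libraries held 33 barcode sequences in common, and 1 of the 213 uninjured arterial cells carried one of these. The 213 cells had 1845 to 15215 UMIs each (median 4465), 1055228 in all, and a median of 1925 genes. The libraries differed in sex-linked transcripts. The 39 injured arterial cells had no Xist UMI and 47 UMIs of Y-linked genes, and the 213 uninjured cells had 701 Xist UMIs and none of Y-linked genes.

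The genes of the rule were seen in different combinations. Sema3g, a secreted semaphorin (chromosome 14, 31217860 to 31230352 in the GENCODE annotation of mm10), was detected in 90.1% of the 213 cells. Gja5, which encodes the gap junction protein connexin 40 (chromosome 3, 96904693 to 97077416), was detected in 70.0%. Gkn3, a secreted protein of the gastrokine family (chromosome 6, 87383256 to 87388935), was detected in 61.5%. All 3 genes were seen in 75 cells, Gja5 with Sema3g in 56, Sema3g with Gkn3 in 36 and Gja5 with Gkn3 in 17. A further 25 cells qualified on Sema3g alone, 3 on Gkn3 alone and 1 on Gja5 alone. Gja5 ran to at most 8 UMIs in a cell and Sema3g to 15, while Gkn3 ran to 42, so Gkn3 was the gene with the widest spread.

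The 3 arterial markers outside the rule were present in the cells the rule chose. Gja4 encodes connexin 37, another arterial gap junction protein (chromosome 4, 127311421 to 127314039). It stood at 450 UMIs scaled to the group's total (counts per 1000000 UMIs, CPM; 411 to 493) in the 213 arterial cells, against 30.03 CPM (26.3 to 34.1) in 2313 capillary-type cells and 6.19 CPM in 182 venous cells. Hey1, a Notch target (chromosome 3, 8663359 to 8667256), stood at 323 CPM in arterial cells, 52.1 CPM in capillary-type cells and 8.67 CPM in venous cells. Alpl, tissue-nonspecific alkaline phosphatase (chromosome 4, 137741733 to 137796384), stood at 381, 41.2 and 3.72 CPM in arterial, capillary-type and venous cells. Each of the 3 was thus highest in arterial and lowest in venous cells. Capillary-type cells were those of the endothelial gate with no UMI of Gja5, Sema3g, Gkn3, Ackr1 or Selp, and venous cells those with no arterial UMI and at least 2 of Ackr1 and Selp. Both groups also had no UMI of the lymphatic genes Prox1, Mmrn1 and Reln.

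The share of cells with a UMI gave the same order. Gja4 was seen in 72.3% (65.8 to 78.2%) of arterial cells, against 6.27% of capillary-type cells and 3.67% of 1688 cells with no endothelial UMI. Median depths of these groups were 4465, 2757 and 3408 UMIs. What part of the 3.67% came from free RNA was not tested. With every cell thinned to 1500 UMIs, Gja4 was seen in 42.7% of arterial, 3.37% of capillary-type and 1.90% of cells without endothelial UMIs. Hey1 was seen in 29.6% of thinned arterial cells and in 33.6% of the thinned cells with only 1 or 2 arterial UMIs, so it did not set these groups apart. The venous genes outside the rule were mixed. Nr2f2, the venous fate regulator, stood at 14.2 CPM and Lrg1 at 3.79 CPM in arterial cells, both below the capillary-type level. Vwf stood higher in arterial cells, at 310 CPM against 117 CPM in capillary-type cells. Vcam1 was also at least 2-fold higher than in capillary-type cells, and Ephb4 was near level. All 7 venous markers summed to 495 CPM in arterial, 349 CPM in capillary-type and 5209 CPM in venous cells. The sum includes Ackr1 and Selp, which the gates kept out of arterial and capillary-type cells and required in venous cells. Because the marker levels follow from how the groups were set apart, these values are a description and the label rests on them without a test.

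**Figure D1:**
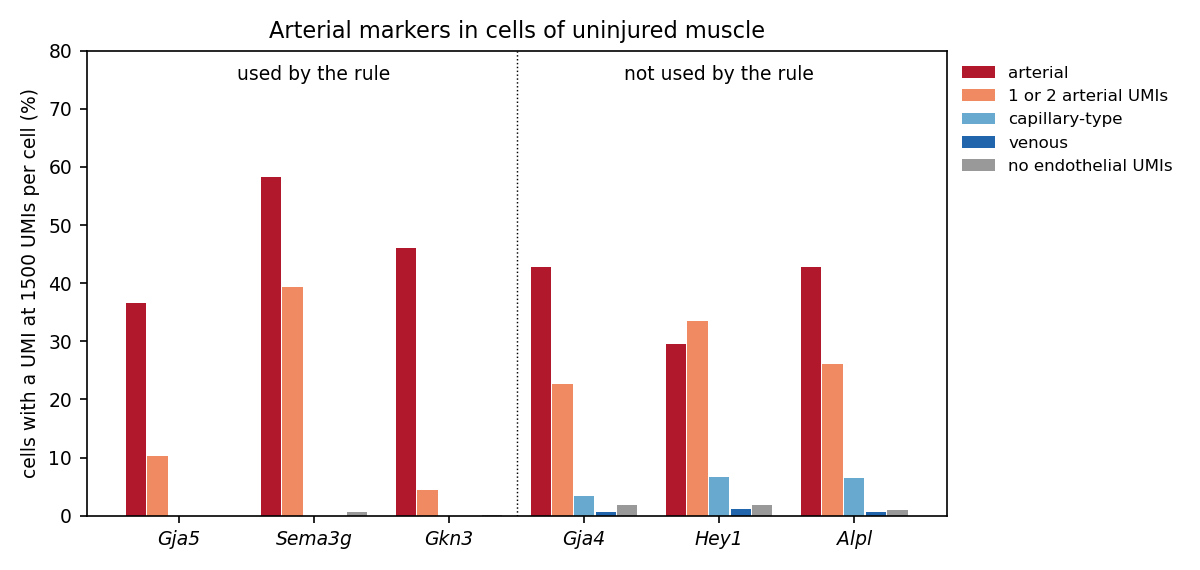
Percentage of cells with at least 1 UMI, after thinning every cell to 1500 UMIs, for the 3 genes of the rule and the 3 other arterial markers, in 5 groups of the uninjured library; bars start at 0 and a dotted line parts the genes of the rule from the others. Gja4 was seen in 42.7% of arterial and 3.37% of capillary-type cells, and Hey1 in 29.6% of arterial cells and 33.6% of cells with 1 or 2 arterial UMIs.

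The cut at 3 arterial UMIs passed through a gradual change. The 49 cells just inside it, with exactly 3 UMIs of the 3 genes, had Gja4 at 423 CPM, Rgcc at 865 CPM and Car4 at 177 CPM. The 65 cells just outside it, with exactly 2, had Gja4 at 247 CPM, Rgcc at 1007 CPM and Car4 at 162 CPM. In the 130 cells with 5 or more UMIs, Gja4 stood at 471, Rgcc at 372 and Car4 at 32.5 CPM. Summed over the cells at the cut, Gja4 thus stood beside Car4 and Rgcc, which mark muscle capillaries. Whether single cells held these genes together was not tested. Of barcodes that met the arterial threshold in the uninjured library, 35 were left out for a Myh11 UMI, 2 for Ackr1 or Selp and 2 for Pdgfra.

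Arterial cells were set beside capillary-type cells as a description only, since the rule separated them. Of 5957 genes with at least 20 expected UMIs in the smaller group, 236 (3.96%) were at least 2-fold higher in arterial cells and 314 (5.27%) at least 2-fold lower. The median log2 ratio was 0.03. The filter pooled 1055228 arterial and 7959205 capillary-type UMIs, so genes higher in capillary-type cells passed it at lower levels. Counts of higher and lower genes, also in the lists below, carry this limit. Of the 5957 genes, 115 stood over 10 times higher in non-endothelial than in arterial cells. None of the 115 was among the 236, 66 were among the 314, and none is named in this comparison.

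Cytl1 stood furthest above the capillary-type level, followed by Igf2, Fbln5 and Clu. Cytl1, a cytokine-like secreted protein (chromosome 5, 37735519 to 37739820), stood at 905 CPM in arterial cells and 14.7 CPM in capillary-type cells, 61.6-fold higher (50.8 to 75.3). In venous cells it was at 333 CPM, so it was not particular to arterial cells, and in non-endothelial cells at 2.25 CPM. The growth factor Igf2 stood at 385 CPM in arterial and 14.7 CPM in capillary-type cells, 26.2-fold higher. Clu, the extracellular chaperone clusterin, stood at 854 CPM in arterial and 40.6 CPM in capillary-type cells, 21.0-fold higher. Igfbp4, which binds insulin-like growth factors, stood at 1044 CPM in arterial and 73.8 CPM in capillary-type cells, 14.2-fold higher.

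Genes of other functions reached the same range. The microtubule regulator Stmn2 stood at 931 CPM in arterial cells and 97.5 CPM in capillary-type cells, and was seen in 70.4% of thinned arterial cells against 11.4% of thinned capillary-type cells. Cd24a, a small glycosylated surface protein, was 16.7-fold higher in arterial cells, and Atp2a3, a calcium pump of the endoplasmic reticulum, 15.2-fold higher. Sulf1, which trims sulfate groups from heparan sulfate, was 13.5-fold higher, Eps8l2, an actin regulator, 11.3-fold higher and the sialyltransferase St8sia6 11.02-fold higher in arterial cells.

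**Figure D2:**
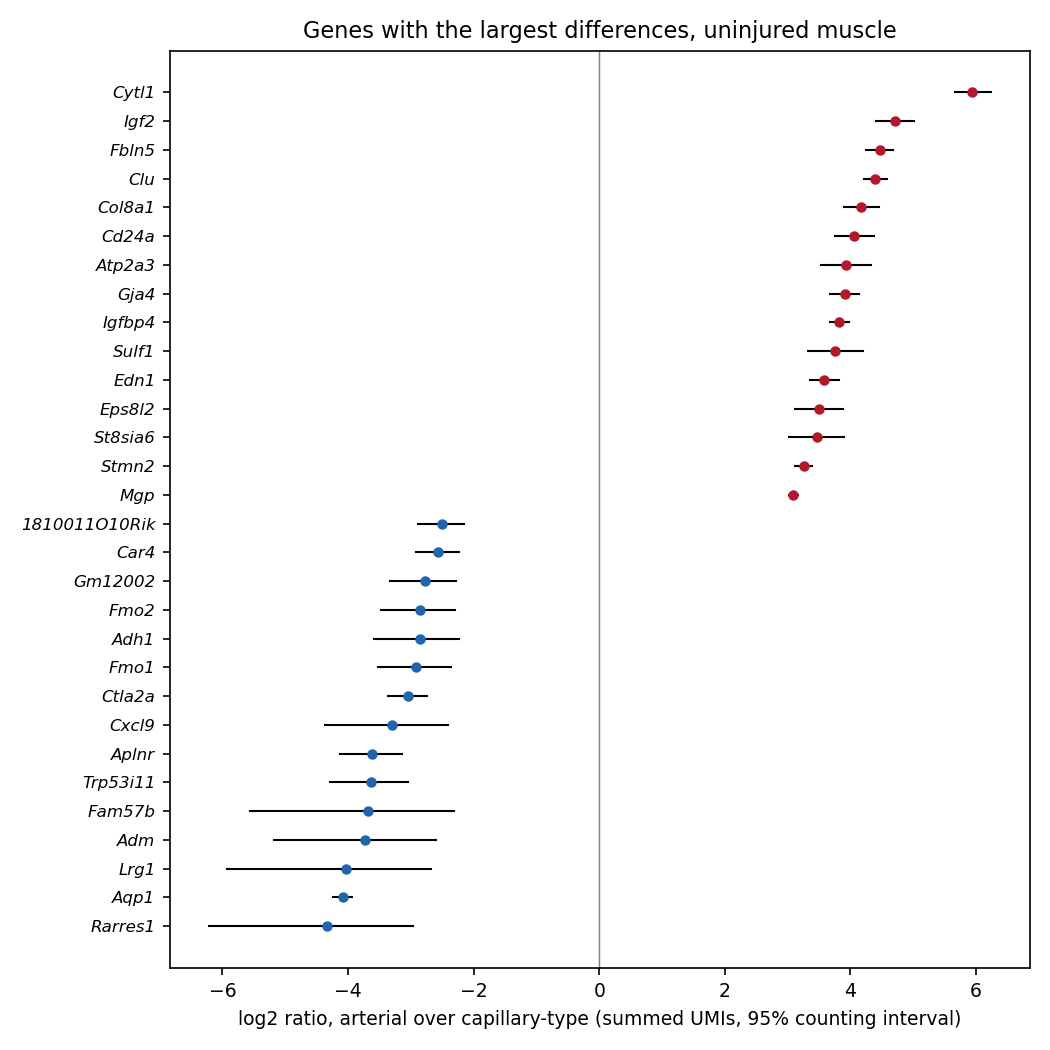
Log2 ratio of CPM, arterial over capillary-type cells of the uninjured library, for the 15 genes furthest above and the 15 furthest below by the near end of the 95% counting interval, which the horizontal lines show. Cytl1 stood 61.6-fold higher and Aqp1 17.0-fold lower in arterial cells.

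Notch pathway genes had 13 of 18 members measured. Of the 13, 2 (Jag1 and Hey1) were at least 2-fold higher in arterial than capillary-type cells and 1 (Lfng) at least 2-fold lower. Over all measured genes the shares were 3.96% higher and 5.27% lower. The median log2 ratio was 0.53 for the list and 0.03 over all measured genes. The ligand Jag1 stood at 174 CPM in arterial and 20.7 CPM in capillary-type cells, 8.41-fold higher. The ligand Dll4 stood at 198 CPM in arterial and 128 CPM in capillary-type cells, a ratio of 1.55, and the receptors Notch1 and Notch4 had ratios of 1.76 and 1.79. Dll4 separated arterial from venous cells more widely, at 198 CPM in arterial and 14.9 CPM in venous cells. The target Hes1 ran the other way from Hey1 against capillary-type cells, at 367 CPM in arterial and 537 CPM in capillary-type cells.

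Of 24 transcription factors of endothelial identity 23 were measured; none was at least 2-fold higher in arterial than capillary-type cells and 2, Ets2 and Nr2f2, were at least 2-fold lower. The ETS factor Ets2 stood at 148 CPM in arterial and 354 CPM in capillary-type cells. Sox17, the SoxF factor of arteries, stood at 599 CPM in arterial and 305 CPM in capillary-type cells, a ratio of 1.96. Against venous cells, at 201 CPM, its ratio was 2.98. Nr2f2, at 14.2 CPM in arterial cells, stood at 55.8 CPM in capillary-type and 224 CPM in venous cells. Klf2, which responds to shear stress, was near level at 1097 CPM in arterial and 1215 CPM in capillary-type cells.

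Letters of the DNA sites that SOX proteins (ACAAT) and the Notch effector RBPJ (GTGGGAA) bind were sought on both strands in the 250 bases before each RefSeq transcription start (GRCm38.p6). Of 32851 such windows, 27.7% held the SOX letters and 5.42% the RBPJ letters. The 6 markers had 6 windows of 5 genes; the SOX letters were in 1, that of Gja4, and the RBPJ letters in none. Of 14 windows of 10 genes among the 15 highest over capillary-type cells, 4 held the SOX letters and 1, of Igf2, the RBPJ letters. A match is a description of the sequence and no match says only that the letters are not in this window. The windows of Gja4 (minus strand, chr4:127314040-127314289) and Edn1 (plus strand, chr13:42301226-42301475) are shown because Gja4 is the marker with a match and the Edn1 window held the most matches of those searched for these genes. Igf2 held the SOX letters in 2 further windows. They read 5′ to 3′ toward the start, with ACAAT or its complement ATTGT in capitals; Gja4 had 1 match and Edn1 4.
Gja4: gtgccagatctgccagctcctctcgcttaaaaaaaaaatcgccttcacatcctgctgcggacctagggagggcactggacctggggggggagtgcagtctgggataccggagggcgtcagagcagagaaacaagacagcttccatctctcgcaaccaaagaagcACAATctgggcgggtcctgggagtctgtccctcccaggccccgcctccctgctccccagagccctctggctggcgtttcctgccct
Edn1: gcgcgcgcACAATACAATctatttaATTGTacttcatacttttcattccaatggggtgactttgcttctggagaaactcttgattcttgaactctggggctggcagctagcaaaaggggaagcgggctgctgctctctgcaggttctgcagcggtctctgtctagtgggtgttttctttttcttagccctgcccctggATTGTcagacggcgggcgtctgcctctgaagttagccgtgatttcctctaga

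Among ephrins, semaphorins and guidance receptors 16 of 20 members were measured, of which 3 were at least 2-fold higher and 2 at least 2-fold lower in arterial than capillary-type cells. Efnb2, the ephrin that marks arteries, stood at 243 CPM in arterial, 80.9 CPM in capillary-type and 37.2 CPM in venous cells. Its venous partner receptor Ephb4 was near level, at 78.7 CPM in arterial and 89.8 CPM in capillary-type cells. Epha4 and Sema7a were 3.84-fold and 2.66-fold higher in arterial cells. Nrp2, a coreceptor for semaphorins and VEGF-C, was lower, at 31.3 CPM in arterial and 146 CPM in capillary-type cells.

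Of the connexins and junction genes, 12 of 16 were measured. Gja4 alone was at least 2-fold higher than in capillary-type cells, and Jam3, a junctional adhesion molecule, was 3.64-fold lower. Gja1, which encodes connexin 43, stood at 167 CPM in arterial and 183 CPM in capillary-type cells, within a counting interval that included no difference. The junctional cadherin Cdh5, a gene of the endothelial gate, stood at 1092 CPM in arterial and 1241 CPM in capillary-type cells.

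Genes that set vascular tone split in direction, 2 of 15 measured members standing at least 2-fold higher and 5 at least 2-fold lower in arterial than capillary-type cells. Edn1 encodes the vasoconstrictor endothelin 1 and stood at 398 CPM in arterial and 33.2 CPM in capillary-type cells, 12.0-fold higher (10.3 to 14.1). Ace, the angiotensin converting enzyme, stood at 308 CPM in arterial and 41.7 CPM in capillary-type cells, 7.38-fold higher. The vasodilator peptide gene Adm was 13.3-fold lower in arterial cells, and its receptor parts Calcrl and Ramp3 were also at least 2-fold lower. Nos3, the endothelial nitric oxide synthase, had a ratio of 1.43. Kcnn4, a calcium-activated potassium channel, had 72 UMIs in arterial and 22 in capillary-type cells, too few to pass the filter on expected UMIs.

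Elastic fibre and matrix genes were mostly higher in arterial cells. Of 20 members 16 were measured, and 11 were at least 2-fold higher and none at least 2-fold lower in arterial than capillary-type cells, with a median log2 ratio of 1.59. Eln, the elastin precursor, stood at 385 CPM in arterial and 62.8 CPM in capillary-type cells. Fbln5, a fibulin that assembles elastin, stood at 691 CPM in arterial and 31.3 CPM in capillary-type cells, 22.1-fold higher (19.1 to 25.6). Mgp, an inhibitor of vascular calcification (chromosome 6, 136872435 to 136875823), stood at 3728 CPM in arterial and 437 CPM in capillary-type cells. In non-endothelial cells Mgp stood at 3948 CPM, so it was not particular to arterial cells of this muscle. Col8a1, a short-chain collagen of vessel walls, was 18.1-fold higher and Htra1, a secreted protease, 5.74-fold higher. Eln did not separate arterial from venous cells, at 385 CPM in arterial and 458 CPM in venous cells.

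Other cells of the muscle also express several of these matrix genes. Marker UMIs of fibro-adipogenic cells summed to 1089 CPM in arterial and 2141 CPM in capillary-type cells, with 6 of 7 markers seen in each group and Pdgfra at 0 by the rule. Per cell, the sum ran from 0 to 48636 CPM (median 114) in arterial cells and from 0 to 106581 CPM (median 0) in capillary-type cells. Smooth muscle markers summed to 288 CPM in arterial and 247 CPM in capillary-type cells, with 5 of 7 seen in each group and Myh11 at 0 by the rule. With barcodes holding at least 2 UMIs of a marker of another cell type left out, 10 of 11 measured matrix genes were at least 2-fold higher in arterial cells and the median log2 ratio was 2.91. It was 1.39 against the deeper capillary-type cells alone.

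The basement membrane genes went the other way. Of 16 members 13 were measured, with 2 at least 2-fold higher and 7 at least 2-fold lower in arterial than capillary-type cells and a median log2 ratio of -1.002. The type IV collagen gene Col4a1 stood at 332 CPM in arterial and 866 CPM in capillary-type cells. Hspg2, which encodes perlecan, was 3.23-fold lower, and Col15a1 stood at 12.3 CPM in arterial and 116 CPM in capillary-type cells. Col18a1, the source of endostatin, and the laminin gene Lamb2 were the 2 that stood higher in arterial cells, 7.05-fold and 2.05-fold.

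Growth factor genes and their receptors had 25 of 31 members measured, 5 at least 2-fold higher and 4 at least 2-fold lower in arterial than capillary-type cells. Vegfc, a ligand best known for lymphatic growth, stood at 269 CPM in arterial and 32.3 CPM in capillary-type cells, 8.34-fold higher. Tgfb2 was 6.19-fold and Igfbp3 6.14-fold higher in arterial cells. The main VEGF receptor gene Kdr stood at 292 CPM in arterial and 674 CPM in capillary-type cells, and Aplnr, the apelin receptor, at 34.1 CPM in arterial and 417 CPM in capillary-type cells.

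Aqp1, Car4 and Gpihbp1 were lower in arterial cells, and most fatty acid handling genes did not pass 2-fold. The water channel Aqp1 stood at 364 CPM in arterial and 6173 CPM in capillary-type cells, 17.0-fold lower (15.3 to 18.8). It was seen in 22.1% of thinned arterial and 91.9% of thinned capillary-type cells. In venous cells Aqp1 stood at 4386 CPM, so it was not particular to capillary-type cells. Car4, a carbonic anhydrase of the capillary surface, stood at 68.2 CPM in arterial and 404 CPM in capillary-type cells. Gpihbp1, which anchors lipoprotein lipase to the capillary wall, stood at 517 CPM in arterial and 2129 CPM in capillary-type cells. Of 16 genes of fatty acid handling 11 were measured, 3 of them at least 2-fold lower and none at least 2-fold higher in arterial cells. The fatty acid binding protein gene Fabp4 stood at 13081 CPM in arterial and 19725 CPM in capillary-type cells, and the fatty acid transporter gene Cd36 at 1305 CPM in arterial and 1701 CPM in capillary-type cells.

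Coagulation genes had 9 of 14 members measured, 3 at least 2-fold higher and none at least 2-fold lower in arterial than capillary-type cells. They were the plasminogen activator Plat at 3.58-fold, the ATP-degrading ectoenzyme Entpd1 at 3.09-fold and von Willebrand factor, Vwf. Vwf stood at 310 CPM in arterial, 117 CPM in capillary-type and 1273 CPM in venous cells, so arterial cells were between the others. All 14 antigen presentation genes were measured, 1 at least 2-fold higher (H2-Q7, with close paralogs) and 3 of class II at least 2-fold lower in arterial than capillary-type cells, with a median log2 ratio of 0.56. Of the class II genes, Cd74 stood at 22.7 CPM in arterial and 268 CPM in capillary-type cells and H2-Aa at 13.3 and 102 CPM in arterial and capillary-type cells. Macrophage marker UMIs were 59.7 CPM in arterial and 223 CPM in capillary-type cells, with 5 of 6 markers seen in arterial and 6 of 6 in capillary-type cells, and their part in the result was not tested. Interferon response, immediate early, heat shock, ribosome biogenesis and oxidative phosphorylation genes had at most 1 member past 2-fold each.

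Against venous cells, 400 of 5173 measured genes (7.73%) were at least 2-fold higher in arterial cells and 279 (5.39%) at least 2-fold lower. The rule separated these groups too. Igfbp3 stood at 654 CPM in arterial and 14.9 CPM in venous cells, 44.0-fold higher, and the cellular retinol-binding gene Rbp7 at 1086 CPM in arterial and 50.8 CPM in venous cells. Dusp26, a phosphatase, stood at 115 CPM in arterial cells with 1 UMI in all venous cells. On the venous side Lrg1, a secreted leucine-rich glycoprotein, stood at 3.79 CPM in arterial and 1806 CPM in venous cells, 476-fold lower (186 to 1751). Plvap, which forms the diaphragms of caveolae and fenestrae, stood at 31.3 CPM in arterial and 2410 CPM in venous cells, 77.1-fold lower.

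Leukocyte adhesion and inflammation genes were mostly lower in arterial than venous cells, 9 of 14 measured members standing at least 2-fold lower, 2 at least 2-fold higher and a median log2 ratio of -1.07. The adhesion molecules Icam1 and Vcam1 were 5.42-fold and 3.75-fold lower, and the cytokine Il6 22.5-fold lower. Sele, E-selectin, had no UMI in arterial cells and 61.9 CPM in venous cells, at least 21.8-fold lower with the arterial count set at 3 over the group. Among interferon response genes, 8 of 14 measured stood at least 2-fold above the venous level and none below it. Isg15, a ubiquitin-like interferon product, stood at 786 CPM in arterial and 191 CPM in venous cells. Smooth muscle marker UMIs differed between these groups, at 288 CPM in arterial and 974 CPM in venous cells, and their part in the result was not tested.

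To show how genes follow the arterial genes without the depth of a cell, endothelial cells with no UMI of the venous and lymphatic genes above were thinned to 1500 UMIs and grouped by their remaining UMIs of Gja5, Sema3g and Gkn3. There were 2481 cells with 0, 177 with 1, 99 with 2 or 3 and 49 with 4 or more, the last all members of the 213 as defined on full counts. Gja4 stood at 42.2, 347, 471 and 544 CPM over these 4 groups in order. Hey1 stood at 77.1, 347, 330 and 245 CPM, and Alpl at 60.7, 339, 431 and 381 CPM. For each of the 3 markers the counting intervals overlapped from 1 UMI on.

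The matrix genes had another course. Mgp stood at 278, 625, 3973 and 12082 CPM from 0 to 4 or more arterial UMIs. Cytl1 stood at 21.0, 60.3, 822 and 3660 CPM, and Eln at 65.8, 117, 357 and 1034 CPM. They were highest where the arterial UMIs were most. Efnb2 stood at 89.7, 181, 256 and 150 CPM, and its counting intervals overlapped from 1 UMI on. Aqp1, which was also high in venous cells, and the capillary gene Rgcc ran down over the same groups. Aqp1 stood at 6355, 1725, 350 and 177 CPM and Rgcc at 1718, 1209, 492 and 68.0 CPM. Gkn3 made up 11.9%, 29.2% and 65.2% of the 3 genes' UMIs in the cells with 1, 2 or 3, and 4 or more, so the last group was largely set by Gkn3.

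**Figure D3:**
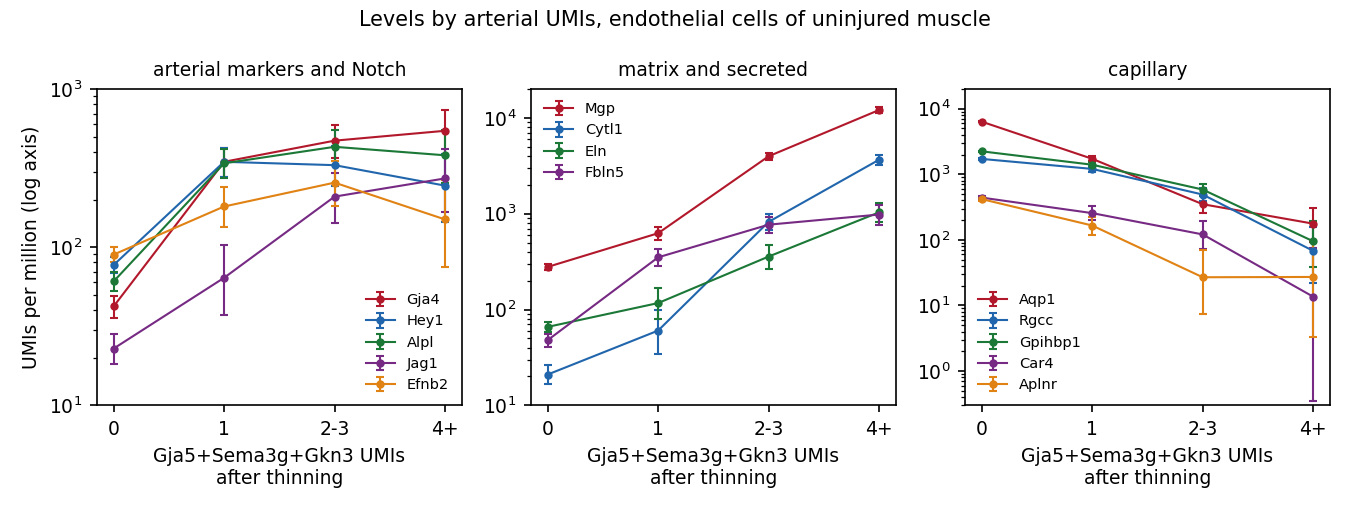
CPM (log axis, with 95% counting intervals) by the number of UMIs of Gja5, Sema3g and Gkn3 left after thinning to 1500 UMIs. Panels show arterial markers and Notch or ephrin ligands, secreted and matrix genes, and genes high in capillary-type cells. All are endothelial cells of the uninjured library. Gja4 was at 347 CPM with 1 UMI, Mgp at 12082 CPM in the cells with most, and Aqp1 was at 177 CPM there.

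Within the 213 cells, a few genes varied far more between cells than counting gives. After thinning, the variance over the mean had a median of 1.04 across 2384 genes with a mean of at least 0.1 UMI. Mgp had a value of 33.4, with 40.8% of cells positive and up to 82 UMIs in 1 cell. Its level in non-endothelial cells was 1.06 times that in arterial cells. Cytl1 had a value of 12.1, with 23.9% of cells positive and up to 29 UMIs. Fabp4 reached 8.60 and Gkn3 4.42. Dcn, at 37.2, is a fibroblast gene and stood 18.9 times higher in non-endothelial than in arterial cells. Vcam1 reached 5.71 with 3.76% of cells positive.

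The cells were then split by Gkn3, the most uneven gene of the rule, after these values were seen. A UMI of Gkn3 was present in 131 cells (median 3995 UMIs) and absent in 82 (median 5313.5 UMIs). The rule fixes that the Gkn3-negative cells reached the threshold on Gja5 and Sema3g. Of 3401 measured genes, 68 (2%) were at least 2-fold higher in Gkn3-positive cells and 30 (0.882%) at least 2-fold lower, around a median log2 ratio of -0.03. All 213 cells come from 1 library, so this compares cells of that library.

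Cytl1, Mgp, Bgn, Clu and Eln were higher in Gkn3-positive cells. Cytl1 stood at 1455 CPM in Gkn3-positive and 155 CPM in Gkn3-negative cells, 9.42-fold higher (7.37 to 12.2), and was seen in 33.6% of thinned positive and 8.54% of thinned negative cells. Mgp stood at 5600 CPM in positive and 1176 CPM in negative cells, 4.76-fold higher. Bgn, the matrix proteoglycan biglycan, stood at 478 CPM in positive and 58.2 CPM in negative cells, 8.21-fold higher (5.49 to 12.8). Clu stood at 1209 CPM in positive and 370 CPM in negative cells, and Eln at 526 CPM in positive and 193 CPM in negative cells. Of the 12 measured elastic fibre and matrix genes 5 were at least 2-fold higher in positive cells and none lower, with a median log2 ratio of 0.72.

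Other genes differed with Gkn3 as well. Ctsh, the lysosomal protease cathepsin H, stood at 199 CPM in positive and 13.4 CPM in negative cells. The copper oxidase gene Cp, for ceruloplasmin, was 8.22-fold higher in positive cells and Dkk2, a regulator of Wnt signalling, 5.23-fold higher. Kcnn4 stood at 100 CPM in positive and 24.6 CPM in negative cells. The metalloproteinase inhibitor Timp2 and the protease receptor F2rl1 were 4.14-fold and 5.03-fold higher.

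Several genes were lower in Gkn3-positive cells, and the summed level of 8 capillary markers was 2403 CPM in positive and 3780 CPM in negative cells. Gpihbp1 stood at 342 CPM in positive and 757 CPM in negative cells, 2.22-fold lower (1.86 to 2.65). Igfbp7, an insulin-like growth factor binding protein, was 2.14-fold lower and Cd300lg, an endothelial surface receptor, 2.51-fold lower. Gja1 stood at 105 CPM in positive and 251 CPM in negative cells, and the adaptor Grap was 4.43-fold lower. Rgcc, at 373 CPM in positive and 679 CPM in negative cells, and Rbp7, at 798 CPM in positive and 1478 CPM in negative cells, differed by less than 2-fold.

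The 3 arterial markers outside the rule differed by less than 2-fold across this split. Gja4 stood at 511 CPM in Gkn3-positive and 367 CPM in Gkn3-negative cells, Alpl at 394 and 363 CPM in positive and negative cells, and Hey1 at 273 and 392 CPM in positive and negative cells. Edn1 stood at 401 CPM in positive and 394 CPM in negative cells. None of the 20 measured identity transcription factors passed 2-fold, Sox17 standing at 578 CPM in positive and 627 CPM in negative cells. Across the 213 thinned cells, Spearman's rho with Gkn3 was 0.51 for Clu, 0.45 for Cytl1, 0.43 for Bgn and 0.42 for Mgp. It was 0.07 for Gja4, -0.01 for Alpl, -0.13 for Hey1, -0.32 for Gpihbp1 and -0.35 for Tcf15. These points are cells of 1 library at 1 depth, and rho is given as a description.

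**Figure D4:**
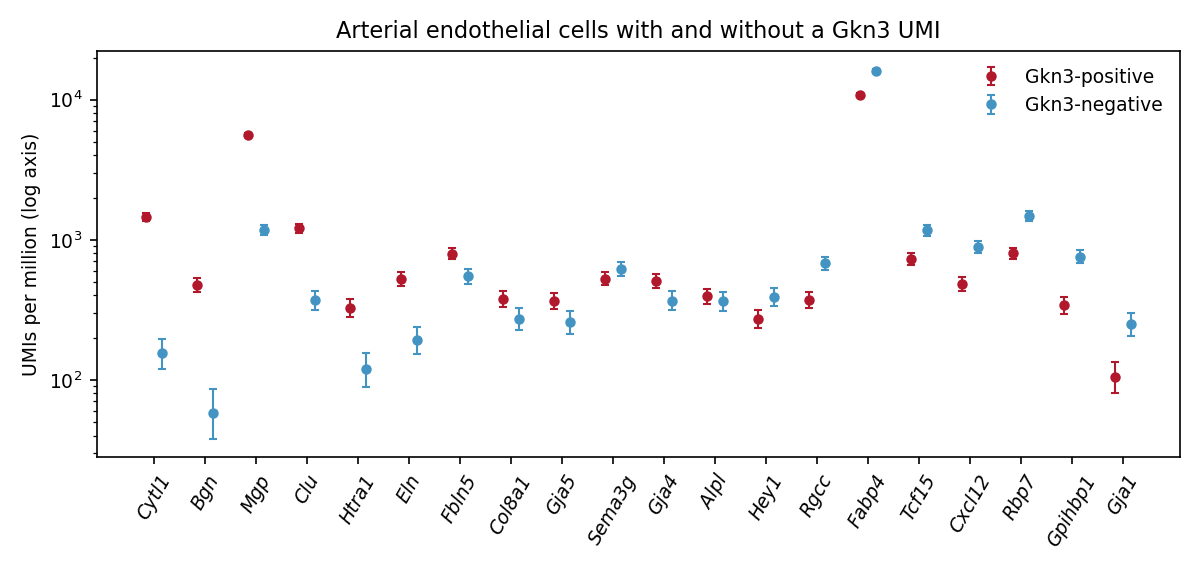
CPM (log axis, with 95% counting intervals) in the 131 Gkn3-positive (left of each pair) and 82 Gkn3-negative (right) arterial cells of the uninjured library, for 20 genes. Cytl1, Mgp, Bgn and Clu were higher in positive cells, Gpihbp1 and Gja1 lower, and Alpl was at 394 and 363 CPM in positive and negative cells.

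Markers of other cells moved with the Gkn3 split. The summed level of 7 fibro-adipogenic markers was 1505 CPM in positive and 522 CPM in negative cells, although 17.6% of positive and 18.3% of negative cells held at least 2 of their UMIs. The deepest cell, with 15215 UMIs, held 560 of the 784 Dcn UMIs, 90 of the 95 Sfrp4 UMIs and 57 of the 67 Comp UMIs of all 213 cells. Sfrp4 and Comp were among the 15 genes furthest above in positive cells and rest on that barcode. With barcodes holding markers of other cells left out, 112 positive and 61 negative cells remained, and 44 of 2496 measured genes were at least 2-fold higher in positive cells and 24 at least 2-fold lower. There Cytl1 was 8.02-fold higher (6.27 to 10.4), Mgp 4.16-fold, Bgn 11.8-fold, Eln 2.67-fold and Clu 2.88-fold, while Sfrp4 had 1 UMI in positive and 1 in negative cells.

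The same rule found 39 arterial cells in the injured library, 6.30% (4.52 to 8.51%) of its gated endothelial cells, against 6.66% in the uninjured library. They had 3394 to 25059 UMIs each (median 6413). A Myh11 UMI excluded 13 further barcodes. The 2 sets of cells were chosen by the same genes, so the levels of Gja5, Sema3g and Gkn3 describe the choice. Gja5 stood at 370 CPM in injured and 321 CPM in uninjured arterial cells and Sema3g at 488 and 567 CPM in injured and uninjured cells. Gkn3 stood at 157 CPM in injured and 756 CPM in uninjured cells, and 41.5% of its injured UMIs were in 1 cell. A Gkn3 UMI was present in 28.2% of injured and 61.5% of uninjured arterial cells.

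The markers outside the rule were spread in direction. Gja4 stood at 784 CPM in injured and 450 CPM in uninjured arterial cells, Hey1 at 246 CPM in injured and 323 CPM in uninjured cells, and Alpl at 115 CPM in injured and 381 CPM in uninjured cells. Of these 3 only Alpl differed by over 2-fold. In all, 153 of 2668 measured genes (5.73%) were at least 2-fold higher in injured than uninjured arterial cells and 316 (11.8%) at least 2-fold lower. The median log2 ratio was -0.01. The filter pooled 338001 injured and 1055228 uninjured UMIs, so genes higher in uninjured cells passed it at lower levels. What part of the excess of lower genes came from this was not tested. In capillary-type cells of the same libraries, 1089 of 9520 measured genes (11.4%) were at least 2-fold higher and 1873 (19.7%) at least 2-fold lower. Those 449 injured and 2313 uninjured cells share their libraries with the arterial cells, so the comparisons are not independent. Whether a difference is due to injury or to the library, animal or sex cannot be told apart.

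Upp1, Ctla2a and Hbegf were among the genes furthest above in injured arterial cells. Hbegf, a ligand of the EGF receptor, was 7.75-fold higher in injured arterial cells, Upp1, uridine phosphorylase, 11.2-fold and Nme1, a nucleoside diphosphate kinase, 5.01-fold. The membrane protein gene Emp1 stood at 820 CPM in injured and 147 CPM in uninjured arterial cells, and Col18a1 at 473 CPM in injured and 81.5 CPM in uninjured arterial cells.

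Ctla2a, a cysteine protease inhibitor, stood at 734 CPM in injured and 86.2 CPM in uninjured arterial cells, 8.51-fold higher. It is one of the genes that the uninjured arterial cells held far below the capillary-type level. In capillary-type cells it stood at 1138 CPM in injured and 710 CPM in uninjured cells. The adhesion molecule Icam1 stood at 219 CPM in injured and 39.8 CPM in uninjured arterial cells. The chemokine Cxcl2 had no UMI in the uninjured arterial cells and 716 CPM in the injured ones. It was at least 252-fold higher with the uninjured count set at 3 over the group, and 46.7% of its UMIs were in 1 cell. Macrophage marker UMIs also differed, at 538 CPM in injured and 59.7 CPM in uninjured arterial cells, with 6 of 6 markers seen in injured and 5 of 6 in uninjured cells. Their part in the result was not tested.

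Interferon response genes were lower as a group. Of 14 members 13 were measured in arterial cells, and 11 were at least 2-fold lower and none higher in injured cells, with a median log2 ratio of -2.36. Isg15 stood at 127 CPM in injured and 786 CPM in uninjured arterial cells, and Ifit1, an interferon-induced RNA-binding protein, was 10.2-fold lower. Ifitm3, an antiviral membrane protein with close paralogs, differed least among those named, at 2950 CPM in injured and 4591 CPM in uninjured cells. In capillary-type cells the count was 12 of 14 and the median -2.14. With cells thinned to 1500 UMIs only 4 members were measured in arterial cells, 2 of them at least 2-fold lower, and the median was -0.93.

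The interferon-induced gene Ifi27l2a was among those furthest below in injured arterial cells, at 118 CPM in injured and 1141 CPM in uninjured cells. In capillary-type cells it stood at 200 CPM in injured and 263 CPM in uninjured cells. The antigen presentation genes had 10 of 14 members measured in arterial cells, all 10 at least 2-fold lower in injured cells, with a median log2 ratio of -1.24. H2-K1, a class I heavy chain with close paralogs, stood at 766 CPM in injured and 1666 CPM in uninjured arterial cells, and the immunoproteasome subunit Psmb9 was 5.73-fold lower. With thinned cells 2 of 5 measured members were at least 2-fold lower and the median was -0.93. In capillary-type cells 10 of 14 were at least 2-fold lower.

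Fatty acid handling genes were lower too, 7 of 9 measured members standing at least 2-fold lower in injured arterial cells with a median log2 ratio of -1.22. Cd36 stood at 281 CPM in injured and 1305 CPM in uninjured arterial cells. Tcf15, a transcription factor of the fatty acid uptake programme, stood at 192 CPM in injured and 914 CPM in uninjured cells, and Fabp4 was 2.75-fold lower. Rbp7 stood at 118 CPM in injured and 1086 CPM in uninjured arterial cells, 9.18-fold lower. In capillary-type cells 10 of 15 measured members were at least 2-fold lower in injured cells and 1 was at least 2-fold higher, with a median of -1.48.

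The matrix genes of arterial cells were nearer level. Of 10 measured elastic fibre and matrix members, 2 were at least 2-fold lower in injured arterial cells, Fbln2 and Ltbp4, and the median log2 ratio was -0.33. Mgp stood at 3121 CPM in injured and 3728 CPM in uninjured arterial cells, Eln at 287 and 385 CPM in injured and uninjured cells, and Fbln5 at 562 and 691 CPM in injured and uninjured cells. In capillary-type cells the count was 15 of 20 at least 2-fold lower and the median -2.11; fibro-adipogenic marker UMIs there were 212 CPM in injured and 2141 CPM in uninjured cells, and the difference between the arterial and capillary-type values was not tested. Cytl1 stood at 121 CPM in injured and 905 CPM in uninjured arterial cells, 7.46-fold lower. Cdkn1c, a cell cycle inhibitor, and the retinoic acid hydroxylase gene Cyp26b1 were 8.22-fold and 35.6-fold (6.25 to 1417) lower, the last on 1 injured UMI.

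For Notch, junction and tone genes the share over all measured genes is the yardstick. It was 5.73% at least 2-fold higher and 11.8% at least 2-fold lower in injured arterial cells. No difference of these short lists from that share was tested. Of 8 measured Notch members only Hes1 passed 2-fold, at 145 CPM in injured and 367 CPM in uninjured arterial cells. None of 9 measured connexin and junction genes and none of 9 measured tone genes passed 2-fold. Edn1 stood at 574 CPM in injured and 398 CPM in uninjured arterial cells, with 32.0% of the injured UMIs in 1 cell. Nos3 stood at 166 CPM in injured and 107 CPM in uninjured cells. Of 20 measured identity transcription factors 5 were at least 2-fold lower, among them Klf2 at 524 CPM in injured and 1097 CPM in uninjured cells.

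Actin cytoskeleton genes were higher, 11 of 19 measured members standing at least 2-fold higher in injured arterial cells, none at least 2-fold lower and a median log2 ratio of 1.27. Actb stood at 4802 CPM in injured and 1947 CPM in uninjured arterial cells and the nuclear lamina gene Lmna at 953 and 250 CPM in injured and uninjured cells. In capillary-type cells 12 of 19 were at least 2-fold higher and 1 at least 2-fold lower. Acta2, Tagln and Myl9, all among the 11, are also smooth muscle markers, so the list and those markers rise together in part by construction. Smooth muscle marker UMIs stood at 967 CPM in injured and 288 CPM in uninjured arterial cells. Of 7 markers, 4 were seen in injured and 5 in uninjured cells. Cells with at least 2 such UMIs made up 41.0% of injured and 17.8% of uninjured arterial cells. With barcodes holding markers of other cells left out, 26 injured and 173 uninjured cells remained. There 5 of 14 measured actin genes were at least 2-fold higher with a median of 0.80. Acta2, smooth muscle actin, is both a member of the list and a marker used to leave barcodes out, so its own level there is set by that choice. In the same cells 11 of 13 interferon genes and 7 of 8 fatty acid genes were at least 2-fold lower in injured cells.

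**Figure D5:**
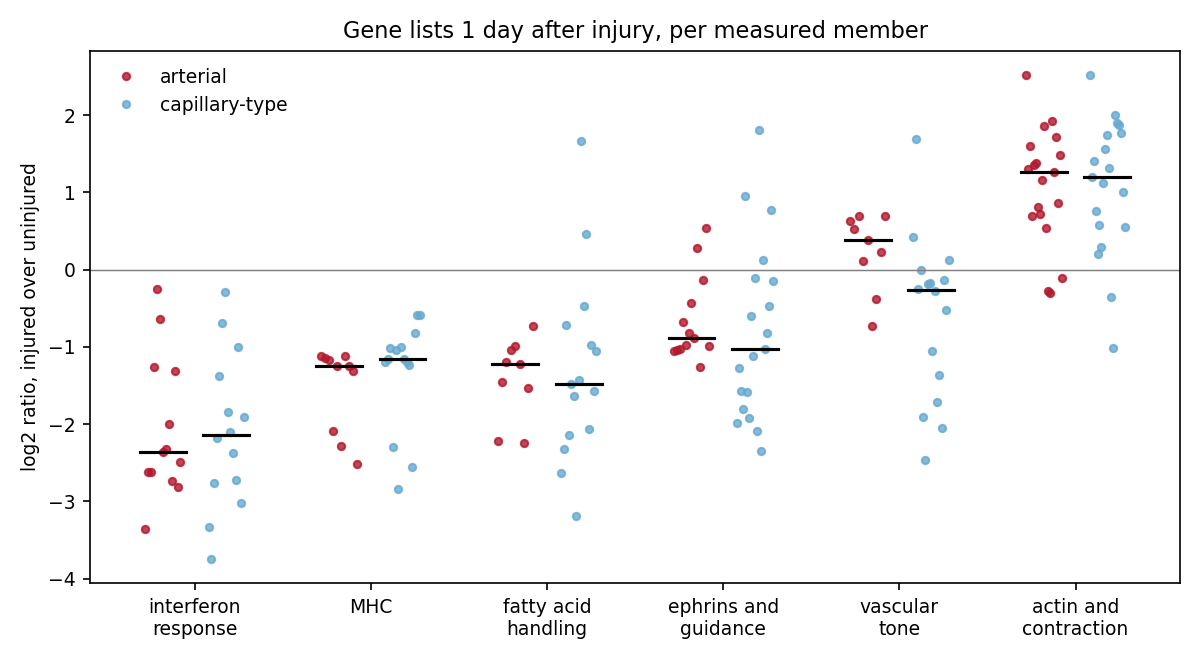
Log2 ratio of CPM, injured over uninjured, of each measured member of 6 gene lists in arterial cells (left of each pair) and capillary-type cells (right); black lines are medians and the grey line marks no difference. The arterial medians were -2.36 for interferon response, -1.24 for antigen presentation, -1.22 for fatty acid handling and 1.27 for actin genes.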

How the data were processed

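Droplet libraries of 3′ transcript ends were used, 1 per condition. The authors deposited UMI counts per gene and barcode, made with Cell Ranger 2.1.1 on mm10 per the submitters' processing notes; the annotation release and the rule for keeping barcodes were not given in the sources used here. Rows that share a symbol were added, giving 28625 symbols. The members and lists were chosen with earlier results of these data known. No doublet caller was run; the rule leaves out barcodes with a Pdgfra or Myh11 UMI, and an alternative leaves out those with at least 2 UMIs of a marker of another cell type, among them Ptprc, Acta2, Rgs5, Pax7, Tnmd and Col1a1.

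UMI counts were summed over the cells of a group and divided by the group's total (CPM). Ratios carry conditional binomial intervals, levels Poisson intervals and shares Clopper-Pearson intervals, at 95%. UMIs are not fully independent molecules, and intervals cover counting error only. A gene was measured when at least 20 UMIs were expected in the smaller group, was counted at a 2-fold difference, and a count of 0 was raised to 3. Expected UMIs came from the pooled level of both groups, so genes higher in the group with more UMIs passed at lower levels. The text names the markers, the 15 genes each way with the interval furthest from no difference for arterial against capillary-type cells and for the Gkn3 split (the choice for this split made after seeing the data), 8 each way against venous cells, 10 each way for injury, and members of the lists; genes over 10 times higher in non-endothelial than arterial cells are not named by this rule (Dcn is named for its spread over cells), and a few genes that the rule would name are not reported here. Alternatives were another arterial threshold or combination, thinning to 1500 UMIs, another mitochondrial maximum, leaving out barcodes with other cells' markers, another minimum of expected UMIs, per-cell means, median scaling, deeper comparison cells and another venous gate; keeping Myh11-positive cells was added after seeing the data. On simulated counts the comparison of arterial with capillary-type cells recovered 100% of a subset of the 5957 measured genes that was set 4-fold higher. The simulation drew counting noise only, with no spread between cells. It checks the calculation and says nothing on differences between cells, animals or libraries. Python 3.11.15, numpy 2.4.6, scipy 1.17.1, pandas 2.3.3 and matplotlib 3.10.9 were used.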

Additional observations from a re-analysis of the deposited data

Results flagged for a closer look

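Of 2656 genes measured in both cell classes, 2 stood at least 2-fold apart in opposite directions between the injured and uninjured libraries. Cdk6, a cyclin-dependent kinase of the G1 phase, had a log2 ratio of injured over uninjured of -2.04 in arterial cells, from 6 injured and 77 uninjured UMIs. In capillary-type cells its log2 ratio was 1.06, from 82 injured and 86 uninjured UMIs. Slfn2, an interferon-regulated gene of the Schlafen family, had a log2 ratio of -1.88 in arterial cells, from 11 injured and 126 uninjured UMIs. In capillary-type cells its log2 ratio was 1.31, from 317 injured and 279 uninjured UMIs. Macrophage marker UMIs were 2266 CPM in injured and 223 CPM in uninjured capillary-type cells, and 538 CPM in injured and 59.7 CPM in uninjured arterial cells; their part in the result was not tested. With 1 library per condition the difference between the cell classes was not tested.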

How the results depend on the processing

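No paired analysis was possible because each condition was 1 library. The alternatives covered arterial against capillary-type cells, arterial against venous cells and injured against uninjured arterial cells. Over all of these no called value changed sign. The Gkn3 split and the injury comparison of capillary-type cells were not part of this count. In the Gkn3 split Sfrp4 had a log2 ratio of 4.49, and of -0.62 with barcodes holding other cells' markers left out. Of 86 counts and shares 57 stayed within 1.5 times or within the counting interval, as did 673 of 788 log2 ratios of named genes; 619 of 693 list medians moved by less than 0.25. A threshold of 5 arterial UMIs left 130 cells and a share of 4.07%, and asking for at least 2 of the 3 genes gave a share of 5.76%. Thinning cells with membership kept left 94 genes at least 2-fold higher and 165 lower in arterial than capillary-type cells, 204 and 136 against venous cells, and 27 and 42 in injured against uninjured arterial cells, fewer because fewer genes reached the minimum. Thinning with membership redrawn on the thinned counts gave a share of 5.39% and counts of 65 and 151, 115 and 64, and 10 and 23 in the same order. A minimum of 5 expected UMIs gave 487 and 779, 868 and 773, and 508 and 985, and a minimum of 50 gave 120 and 162, 194 and 129, and 73 and 122. With barcodes holding other cells' markers left out, 96 genes were at least 2-fold higher in injured arterial cells. Keeping Myh11-positive cells gave 248 arterial cells, 7.46% of gated endothelial cells. The 39 injured arterial cells limit that comparison to 2668 genes.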
